A study of Homo sapiens with 36 samples.

Results

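Ribociclib, an inhibitor of the cyclin-dependent kinases CDK4 and CDK6, and AU2-94, described by the study as selective for CDK4, were compared directly at 2 µM after 72 h in LNCaP cells, an established androgen-sensitive human prostate cancer line. The comparison holds 6 of the 36 RNA-sequencing libraries of the series, 3 replicates of each agent, chosen by their labelled agent, dose and time. Vehicle at 72 h, whose labels also carry a dose of 2 µM, and both agents at 24 h, each with 3 libraries, were used for context. Wells for the 72 h harvest were seeded more thinly than those for 24 h, so time and seeding density cannot be told apart. All groups are of this line, and the labels name no genetic change. The study describes its replicates as biological, all of 1 cell line, so p-values measure the spread between cultures of that line.

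CDK4 and CDK6 bind D-type cyclins and phosphorylate the retinoblastoma protein RB, which releases E2F transcription factors and lets the cell copy its DNA. Inhibitors of these kinases hold cells with intact RB in G1, and transcripts of replication, histones and mitosis then fall. In prostate cells a second programme, driven by androgen, sets the level of secretory and lineage genes such as KLK3, which encodes prostate-specific antigen. Comparing a dual inhibitor with a CDK4-selective one at the same dose asks which transcripts depend on the agent used.

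Most transcripts had similar levels with the 2 agents, and the differences past both thresholds lay mainly in low-level genes. Of 16341 genes tested, 12 were higher with ribociclib and 22 were higher with AU2-94 at an adjusted p of at most 0.05 (limma, Benjamini-Hochberg) and a log2 fold change of at least 1. These are 0.0734% and 0.135% of the genes tested. On the adjusted p alone 320 genes (1.96%) were higher and 226 (1.38%) lower with ribociclib. The main differences were lower CYP1A1, CYP1A2, MYOD1, FOXN4 and CHAC1 with ribociclib, higher ID1, ID3 and KLF5, modestly higher androgen-response genes, and modestly lower histone and mitotic genes.

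The total normalised count was 21549976 to 21903096 in the ribociclib libraries, 20959012 to 21160254 in the AU2-94 libraries and 21436280 to 21617499 in vehicle. Between 20232 and 20605 genes were above 0 with ribociclib and between 20614 and 20858 with AU2-94, so these ranges did not overlap. Their nearest values lay close together, and the part of read depth in this was not tested. All 9 luminal markers checked had at least 10 normalised counts in every library, as the labelled prostate line should. Of 4 basal markers 2 were at 0 in all libraries of either agent, as were 3 of 6 neuroendocrine markers. The summed neuroendocrine markers were 132 to 210 with ribociclib, 247 to 286 with AU2-94 and 101 to 136 with vehicle, mostly ENO2. In bulk RNA a change in the number of cells of a type and a change in RNA per cell cannot be told apart.

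The promoters of the 2 pairs of related genes that moved together are shown because each pair holds related genes past both thresholds in the same direction. Each is the 250 bases before the RefSeq start (GRCh38.p14), 5′ to 3′ on the gene's strand. CYP1A1 is at chr15:74725529-74725778 (minus strand), CYP1A2 at chr15:74748595-74748844 (plus strand), ID1 at chr20:31605039-31605288 (plus strand) and ID3 at chr1:23559502-23559751 (minus strand). Capitals mark GCGTG, the core letters bound by the aryl hydrocarbon receptor AHR, and TATAAA, the TATA box, on either strand.
CYP1A1: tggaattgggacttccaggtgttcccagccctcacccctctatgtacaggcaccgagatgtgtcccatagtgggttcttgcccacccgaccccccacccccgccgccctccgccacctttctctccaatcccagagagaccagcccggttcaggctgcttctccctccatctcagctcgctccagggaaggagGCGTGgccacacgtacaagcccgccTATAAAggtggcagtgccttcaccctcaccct
CYP1A2: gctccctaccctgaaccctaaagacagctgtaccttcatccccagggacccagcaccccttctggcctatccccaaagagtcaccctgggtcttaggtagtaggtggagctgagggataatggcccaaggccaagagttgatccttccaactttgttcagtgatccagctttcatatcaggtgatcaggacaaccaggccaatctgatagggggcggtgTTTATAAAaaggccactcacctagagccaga
ID1: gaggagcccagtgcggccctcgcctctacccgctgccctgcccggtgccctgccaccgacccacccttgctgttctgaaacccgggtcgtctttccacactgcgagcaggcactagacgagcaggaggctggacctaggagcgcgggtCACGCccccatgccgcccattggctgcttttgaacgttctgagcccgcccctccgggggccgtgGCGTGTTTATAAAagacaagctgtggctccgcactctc
ID3: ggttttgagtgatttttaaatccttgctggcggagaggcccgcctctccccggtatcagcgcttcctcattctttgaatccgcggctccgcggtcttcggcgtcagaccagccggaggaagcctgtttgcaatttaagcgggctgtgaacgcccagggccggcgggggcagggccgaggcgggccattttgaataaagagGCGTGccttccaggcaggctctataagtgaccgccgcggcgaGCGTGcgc
GCGTG occurred 1 time in CYP1A1, 2 times in ID1 and 2 times in ID3, and not in this window of CYP1A2. It was present in 32.2% of 35116 promoters over the same window. TATAAA occurred in CYP1A1, in CYP1A2 and ID1 (2 overlapping matches on opposite strands each), and not in ID3, against 10.7% of promoters. No base was shared between matches of the 2 motifs.

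CYP1A1 and CYP1A2, neighbouring cytochrome P450 genes on chromosome 15 that are classic targets of AHR, were far higher with AU2-94. CYP1A1 had 14.8, 31.2 and 22.1 normalised counts with ribociclib, 226, 120 and 169 with AU2-94 and 6.24, 13.2 and 9.70 with vehicle. The 2 agents did not overlap, and the ribociclib libraries were all above the vehicle ones. CYP1A1 was 7.35-fold higher with AU2-94 (95% interval 4.31 to 12.5; log2 difference -2.88 ± 0.37 (SE), adjusted p = 0.000327). CYP1A2 had 5.87, 3.45 and 8.01 with ribociclib against 69.4, 47.0 and 71.1 with AU2-94, and 1.92, 0 and 0 with vehicle. Its fold was 9.60 (5.03 to 18.3, adjusted p = 0.000456). Other AHR-linked genes did not pass: AHRR, the AHR repressor, differed by 0.28 (log2, adjusted p = 0.766), TIPARP by 0.29 (adjusted p = 0.330) and NQO1 by -0.19 (adjusted p = 0.208), and CYP1B1 was under 1 normalised count in all 6 libraries. These 4 genes were added after values had been seen. Of 32 xenobiotic-response genes tested, 3 (9.38%) were higher and 3 (9.38%) lower with ribociclib on the adjusted p. The shares over all genes tested were 1.96% and 1.38%, and the list's median difference was -0.04.

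**Figure D1:**
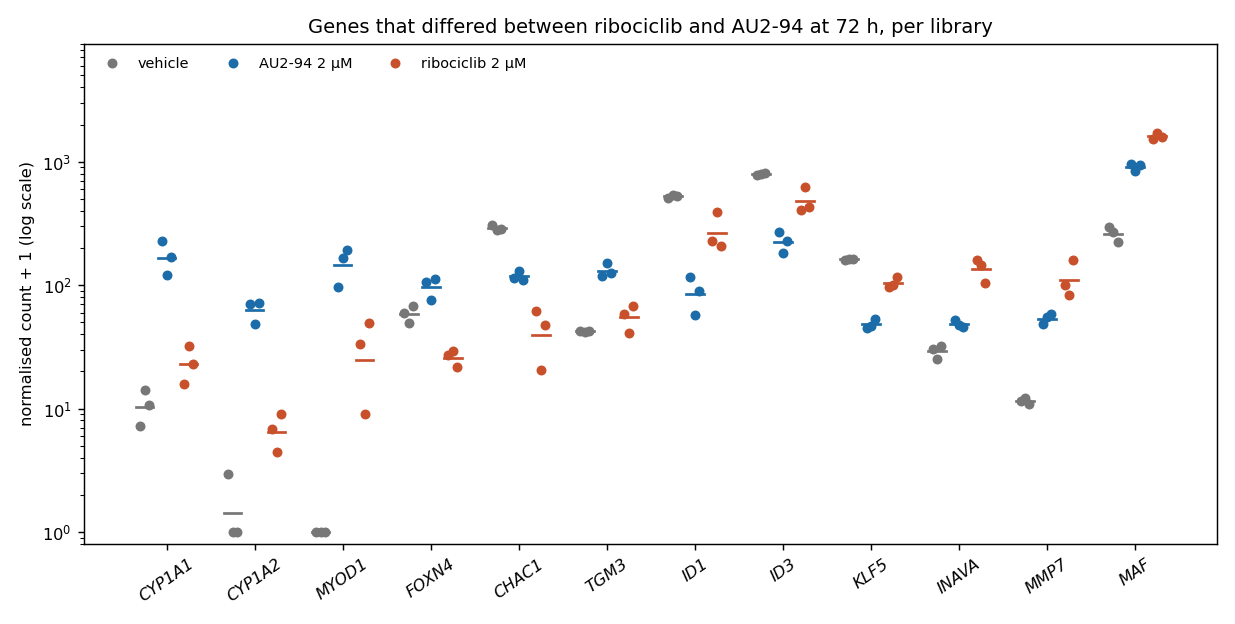
Normalised count plus 1 (log scale) at 72 h for 12 genes that differed between the agents, with 1 point per library and a line at the geometric mean of 3; grey is vehicle, blue AU2-94 and orange ribociclib. For CYP1A1 and CYP1A2 the blue points stand apart above the others, and for ID1, ID3 and KLF5 the orange points lie between vehicle and AU2-94.

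Other genes higher with AU2-94 included transcription factors of tissues other than prostate. MYOD1, the muscle-lineage regulator, had 32.2, 8.07 and 48.1 normalised counts with ribociclib, 96.5, 165 and 190 with AU2-94 and 0 in all vehicle libraries. It was higher than vehicle with either agent, and 5.94-fold higher with AU2-94 than with ribociclib (3.13 to 11.3, adjusted p = 0.00316). FOXN4, a forkhead factor of retina and spinal cord, moved in opposite directions from vehicle. Its values were 26.1, 28.5 and 20.6 with ribociclib, 106, 74.5 and 111 with AU2-94 and 58.2, 48.3 and 67.2 with vehicle, a 3.74-fold difference between agents (2.6 to 5.36, adjusted p = 0.000382). TGM3, a transglutaminase, was 57.7, 40.2 and 67.1 with ribociclib and 117, 149 and 125 with AU2-94, with vehicle at 40.9 to 41.5 (2.39-fold, 1.86 to 3.06, adjusted p = 0.000456); it has a near-identical copy over 2554 bases, which makes its counts uncertain. KLF7 (3.83-fold), CAPN3 (2.44-fold), PCDHGA3 (2.18-fold), KALRN (2.15-fold) and the long non-coding RNA LINC01133 (2.08-fold) were also higher with AU2-94. PCDHGA3 shares 2177 of its 4872 exon bases with the other clustered protocadherins, so its counts are uncertain.

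CHAC1, which degrades glutathione and is a target of the stress factor ATF4, fell with both agents and further with ribociclib. It had 60.4, 19.4 and 46.8 normalised counts with ribociclib, 114, 130 and 110 with AU2-94 and 304, 278 and 285 with vehicle, so the 3 groups did not overlap. The difference between agents was 3.03-fold (2.04 to 4.49, adjusted p = 0.00307). PCK2, the mitochondrial phosphoenolpyruvate carboxykinase, gave a smaller but tighter difference, at 901, 827 and 919 against 1404, 1413 and 1307, with 2500 to 2808 in vehicle (log2 -0.64 ± 0.06 (SE), adjusted p = 2.84e-05). It was named after values had been seen.

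Genes higher with ribociclib included ID1 and ID3, dominant-negative helix-loop-helix proteins induced by BMP signalling. ID1 had 226, 393 and 207 normalised counts with ribociclib, 116, 56.3 and 88.9 with AU2-94 and 504, 540 and 530 with vehicle. Both agents were below vehicle, and the 3 groups did not overlap (3.14-fold higher with ribociclib, 2.03 to 4.84, adjusted p = 0.00506). ID3 was arranged in the same order, at 406, 623 and 427, then 269, 182 and 227, then 777, 798 and 811 (2.13-fold, 1.58 to 2.85, adjusted p = 0.00593). ID2 (log2 0.32, adjusted p = 0.504) and the BMP feedback genes SMAD6 (0.20, adjusted p = 0.158) and SMAD7 (0.38, adjusted p = 0.174), added after values had been seen, did not pass. KLF5, a zinc-finger factor of epithelial cells, was 95.9, 98.4 and 115 with ribociclib, 44.2, 45.6 and 52.2 with AU2-94 and 159, 162 and 162 with vehicle (2.15-fold, 1.70 to 2.73, adjusted p = 0.000916).

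MMP7, a secreted matrix protease, and INAVA, a regulator of innate immune signalling, were higher with ribociclib. MMP7 had 98.6, 81.6 and 157 normalised counts with ribociclib, 47.0, 54.2 and 57.0 with AU2-94 and 9.93 to 11.2 with vehicle (2.04-fold, adjusted p = 0.0219). INAVA had 158, 145 and 103 against 50.8, 46.1 and 44.5 (2.79-fold, adjusted p = 0.0242). TTN, which encodes the muscle protein titin, was 4.15-fold higher (2.05 to 8.41, adjusted p = 0.0243), but its ribociclib libraries ran from 304 to 1416 and its exons overlap an antisense gene. LDLRAD4 was under the floor of 3 normalised counts in every AU2-94 library and, by that floor, at least 5.55-fold higher with ribociclib.

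Of the 34 genes past both thresholds, 31 had a mean under 100 normalised counts over the 6 libraries, 9 of them higher and 22 lower with ribociclib. The median difference of all 4976 genes at that level was -0.13 (log2), against 0.02 for the 11365 genes at 100 or more. Fewer genes were above 0 in the ribociclib libraries, as given above; the part of this in the low-level genes was not tested. All 34 genes kept their direction in each of the 3 replicate numbers. This adds no support, because the agents' values did not overlap for any of the 34, so every pairing must keep the direction. Which genes passed depended on single libraries. Without AU2-94 replicate 2, 12 genes passed, 10 of them among the 34. Without AU2-94 replicate 3, 16 passed (13 among the 34), and without ribociclib replicate 2, 22 passed (14 among the 34). CYP1A1, CYP1A2, MYOD1, FOXN4, CHAC1, TGM3, ID1 and KLF5 passed whichever library was left out. Of these, CHAC1 and MYOD1 did not pass with only the 6 libraries of the contrast, nor MYOD1 with all 36, and 1 of the 34, ID1, passed in every fit run. ID3 kept its adjusted p each time, but its log2 difference was 0.89 without ribociclib replicate 2 and 0.94 without AU2-94 replicate 2. MMP7 passed in 2 of 6 such fits, TTN in 2, INAVA in 1, KLF7 and CAPN3 in 4, LINC01133 and LDLRAD4 in 3, GBP2 in 1, KALRN in 2 and PCDHGA3 in 1.

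**Figure D2:**
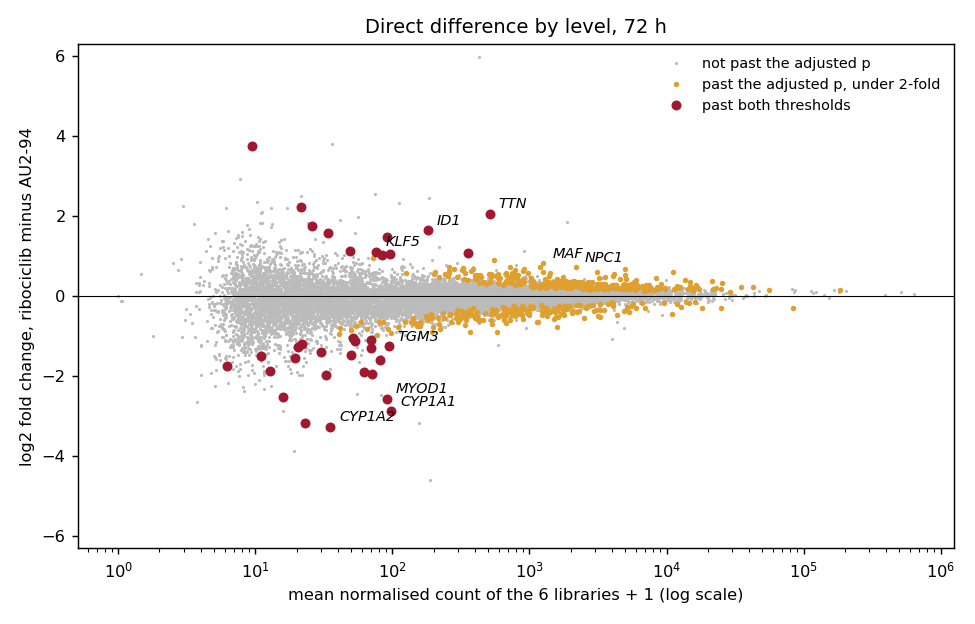
Each point is 1 of 16341 genes at 72 h: the x axis is the mean normalised count of the 6 libraries plus 1 (log scale) and the y axis the log2 fold change, positive where ribociclib was higher. Red points passed both thresholds (12 above and 22 below 0) and lie mostly under 100, while the amber points, past the adjusted p alone, lie closer to 0 at higher levels.

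Among abundant genes the differences were smaller and better resolved. The 320 genes higher with ribociclib on the adjusted p had a median log2 difference of 0.29, and the 226 lower genes one of -0.44; 263 and 139 of them differed by less than 0.5. LCP1, the actin-bundling protein plastin-2, had the lowest adjusted p of the genes named here, at 5948, 6302 and 6125 normalised counts with ribociclib, 4029, 3744 and 3814 with AU2-94 and 1683 to 1852 with vehicle (log2 0.67 ± 0.04 (SE), adjusted p = 1.6e-07). NPC1, which exports cholesterol from lysosomes, was 2729, 2966 and 2464 against 1872, 1543 and 1542, and vehicle was at 1493 to 1703 (0.72 ± 0.08 (SE), adjusted p = 0.000125). IGF1R, the insulin-like growth factor receptor (0.61), the laminin chain LAMC1 (0.61), DOCK4 (0.90) and MICAL1 (0.73) were also higher with ribociclib, and the chemokine receptor ACKR3 (-0.79) and PAG1 (-0.89) were lower. LCP1, IGF1R, LAMC1, DOCK4, MICAL1, ACKR3 and PAG1 were named after values had been seen.

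The balance of these small differences depended on scaling. With the deposited scale 58.6% of the 546 genes past the adjusted p were higher with ribociclib, with quantile normalisation 46.0% (198 higher, 232 lower) and with equal totals 33.9% (167 higher, 326 lower). The groups' totals did not overlap, as given above. The number past the adjusted p also fell, to 234 without ribociclib replicate 2 (207 among the 546). It was 238 without AU2-94 replicate 2 (224 among the 546) and 220 without AU2-94 replicate 3 (210 among the 546).

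Cell-cycle transcripts that passed were mostly lower with ribociclib. Of 47 replication-dependent histone genes tested, 19 (40.4%) were lower and 0 higher on the adjusted p. Over all genes tested, 1.38% were lower and 1.96% higher. The histone genes had a median difference of -0.29 against -0.0011 over all genes tested. Their median change from vehicle, which both agents share, was -1.24 with ribociclib and -0.95 with AU2-94. H3C4 had 986, 767 and 964 normalised counts with ribociclib, 1416, 1436 and 1363 with AU2-94 and 2810 to 3347 with vehicle (log2 -0.64, adjusted p = 0.000427). Histone genes of a class are near-identical in coding sequence, so counts of single members are uncertain. Of 82 G2 and mitosis genes, 16 (19.5%) were lower and 2 (2.44%, CENPN and KIF22) higher, median -0.17. MKI67, the Ki-67 proliferation antigen, had 4663, 4319 and 4795 against 6068, 5778 and 6235, with 9199 to 9766 in vehicle (-0.39 ± 0.06 (SE), adjusted p = 0.00066). TOP2A, the replicative topoisomerase, differed by -0.41 (adjusted p = 0.00863). Of 67 replication genes 7 (10.4%) were lower and 1 (1.49%) higher, median -0.16.

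CDK4, CDK6 and their partners did not pass the test. CDK4 had 2220, 2238 and 2069 normalised counts with ribociclib and 2092, 2130 and 2042 with AU2-94 (log2 0.06, adjusted p = 0.697, 95% interval -0.08 to 0.19). CDK6 was low in this line, at 14.7 to 20 with ribociclib and 13.1 to 40.9 with AU2-94 (log2 -0.18, adjusted p = 0.867, interval -1.003 to 0.65). CCND1, CCND3, RB1 and MYC did not pass, and CCND2 was too low to test. Of 33 genes of the cyclin D, inhibitor and RB group, 5 (15.2%) were lower and 0 higher with ribociclib. The shares over all genes tested were 1.38% and 1.96%. The 5 were the inhibitors CDKN2C (-0.65), CDKN2A (-0.52) and CDKN1A (-0.38) and the proliferation factors MYBL2 (-0.30) and FOXM1 (-0.25). CDKN1A, which encodes p21, had 1835, 1647 and 1824 against 2287, 2309 and 2287, with 2810 to 3125 in vehicle. CDK4, FOXM1, CDKN2C, CDKN2A, CDKN1A, NPC1, LCP1 and KLF7 overlap genes on the other strand. Other genes named in this report do so too, among them TMPRSS2, DOCK4, LDLRAD4, CAPN3, SLC7A11, ATF5 and UGT2B11. The strand setting of the counting is not given in the sources used here.

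Androgen-response genes that passed were mostly higher with ribociclib. Of 95 tested, 26 (27.4%) were higher and 3 (3.16%) lower with ribociclib, with a median difference of 0.19. Over all genes tested, 1.96% were higher and 1.38% lower. MAF, a basic leucine zipper factor, had 1529, 1713 and 1587 normalised counts with ribociclib, 959, 842 and 945 with AU2-94 and 221 to 295 with vehicle (log2 0.82, adjusted p = 0.000112). FKBP5, an androgen-induced co-chaperone, had 4475, 5443 and 4476 against 3706, 2856 and 3540, with 3299 to 3579 in vehicle (0.51, adjusted p = 0.00708). TMPRSS2, a membrane serine protease, differed by 0.26 (adjusted p = 0.0409). KLK3 (0.12, adjusted p = 0.189, interval 0.02 to 0.21) did not pass. The 3 lower genes were FADS1 (-0.42), FASN (-0.30) and SCD, lipid-synthesis enzymes that are also on the sterol-response list. Of 42 genes tested on that list, 4 (9.52%) were lower and 1 (2.38%) higher. Of 15 luminal lineage genes 7 (46.7%) were higher and 0 lower.

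The counts of these groups moved with single libraries and with scaling. Androgen-response genes higher with ribociclib numbered 13 without ribociclib replicate 2, 13 without AU2-94 replicate 2, 15 without AU2-94 replicate 3, 17 with quantile normalisation and 16 with equal totals. Their median stayed between 0.14 and 0.19 in all fits run. Histone genes lower with ribociclib numbered 12 without AU2-94 replicate 1 or 2. The mitotic genes numbered 8 and 9 without ribociclib replicate 2 and 3, and 9 and 6 without AU2-94 replicate 1 and 3. Luminal genes numbered 2 higher and 1 lower with either other scaling. Their median was then 0.005 with quantile normalisation and 0.08 with equal totals, against 0.12 on the deposited scale. With a library left out, 1 to 4 luminal genes were higher. With only the 6 libraries of the contrast in the fit, 8 androgen-response genes were higher, 5 histone, 4 mitotic, 1 replication and 1 cyclin D group gene were lower, and 0 luminal genes passed in limma (8 higher and 2 lower at an unadjusted p under 0.05 in the fit of 18 libraries). Replication genes lower with ribociclib numbered 1 without ribociclib replicate 2, 4 without ribociclib replicate 3, and 4, 3 and 1 without AU2-94 replicate 1, 2 and 3. The cyclin D group numbered 3 without AU2-94 replicate 1 or 3.

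**Figure D3:**
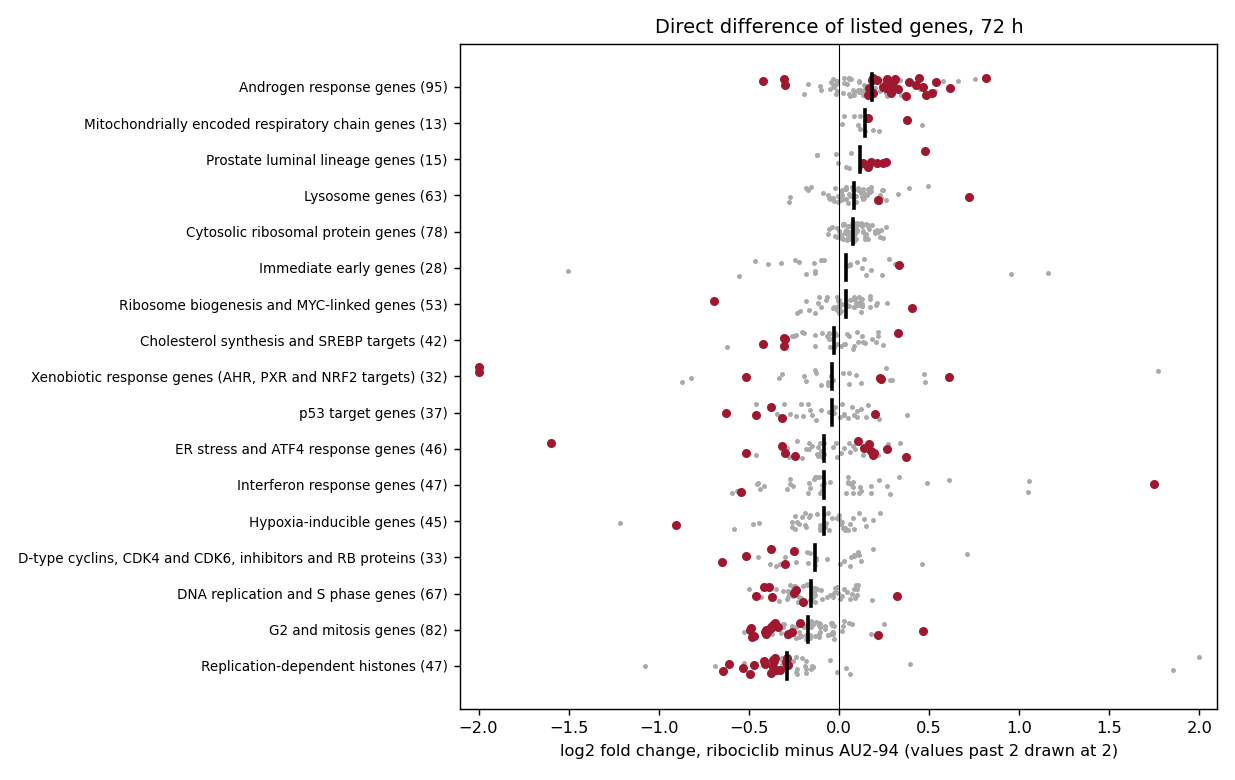
Log2 fold change between ribociclib and AU2-94 at 72 h for the tested members of 17 gene lists (number tested in brackets), 1 point per gene, red where the adjusted p was at most 0.05, with a black line at the list's median; values past 2 are drawn at 2. Androgen-response genes lie to the right (median 0.19) and histone genes to the left (median -0.29).

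Stress-response genes moved in both directions. Of 46 ER stress and ATF4 genes, 8 (17.4%) were higher with ribociclib and 5 (10.9%) lower, against 1.96% and 1.38% over all genes tested. This balance turned with scaling, to 1 higher and 6 lower with quantile normalisation and 2 and 8 with equal totals, and 1 to 4 were higher with any library left out. With only the 6 libraries of the contrast none passed. The largest of the higher differences was that of ATF5 (log2 0.37). The other higher ones were mostly chaperones of the endoplasmic reticulum, among them HSPA5 (log2 0.19, adjusted p = 0.00391) and MANF (0.26, adjusted p = 0.0456). The lower ones were CHAC1, SLC7A11 (-0.51), SESN2 (-0.32), PSAT1 (-0.30) and ATF4 itself (-0.24, adjusted p = 0.0164). HSPA5, MANF, PSAT1 and ATF4 were named after values had been seen. ATF4 was 3849, 3554 and 3717 with ribociclib, 4103, 4666 and 4410 with AU2-94 and 6525 to 7054 with vehicle. Of 37 p53 targets, 4 (10.8%) were lower and 1 (2.7%) higher. Of 63 lysosome genes 2 (3.17%) were higher, close to the 1.96% over all genes tested. Of 78 cytosolic ribosomal protein genes none passed in limma (14 higher and 0 lower at an unadjusted p under 0.05). Of 45 hypoxia genes 1, ENO2, was lower with ribociclib, and of 47 interferon genes GBP2 was higher and OAS3 lower. Of 13 mitochondrially encoded genes 2 were higher, of 28 immediate early genes 1 (JUNB), and of 53 ribosome biogenesis genes MXD1 was higher and MXD3 lower. No basal or stromal and immune marker passed, of 3 and 7 tested.

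How alike the responses were was measured on genes chosen without use of the direct difference. With the mean of the 2 agents set against vehicle, 502 genes (3.07%) were higher and 183 (1.12%) lower past both thresholds. The choice rests on that mean, so either agent alone need not have passed: INAVA is among the 502, and differed from vehicle by 0.72 with AU2-94 (adjusted p = 0.129). Of these 685 genes, 63 (9.20%) differed between the agents on the adjusted p, 26 of them higher and 37 lower with ribociclib. Over all genes tested the share was 3.34%. Both thresholds were passed by 14 of the 685, against 34 of all 16341 genes tested. The 63 became 38 without AU2-94 replicate 2. For 94 the 95% interval of the direct difference lay within 0.5 of 0 on the log2 scale, and for 300 within 1. For the remaining genes the data fix the difference less closely. Over all genes tested, the interval lay within 0.5 for 58.6% and within 1 for 80.9%, and within 0.5 for 82.5% of genes with a mean of at least 100.

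Among the 183 genes below vehicle by the mean of the agents, 31 were lower and 4 higher with ribociclib than with AU2-94 on the adjusted p. Together they were 19.1% of the 183, against 3.34% of all genes tested. The direct difference was negative, passing or not, for 136 of them and the median was -0.29, with a median change from vehicle of -1.39 with ribociclib and -1.14 with AU2-94. Among the 502 genes above vehicle 22 were higher and 6 lower on the adjusted p, together 5.58%. Their direct difference was 261 times positive and 241 times negative, and the median was 0.03, with medians of 1.48 and 1.42. Over all genes tested 8114 were positive and 8226 negative.

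Strong responses that the agents shared included OR51E1, an olfactory receptor expressed in prostate. It had 244, 182 and 319 normalised counts with ribociclib, 208, 293 and 254 with AU2-94 and 4.58 to 6.75 with vehicle, so either agent lay far above vehicle and they overlapped each other (difference -0.04, 95% interval -0.48 to 0.39). RIPOR2 (0.16), the stress-induced NDRG1 (0.23) and ZNF608 (-0.20) were raised likewise. PCDH11Y (-0.02) was also raised, but shares a long identical stretch with PCDH11X. UGT2B15 and UGT2B17, which inactivate androgens by glucuronidation and are near-identical over part of their sequence, fell alike. The related UGT2B11 fell with both agents but further with AU2-94 (log2 difference 0.61, adjusted p = 0.00813). It had 245, 250 and 245 with ribociclib, 174, 140 and 171 with AU2-94 and 1041 to 1172 with vehicle. UGT2B17 was 1595, 1377 and 1549 with ribociclib, 1490, 1579 and 1543 with AU2-94 and 3669 to 4133 with vehicle (-0.03, interval -0.16 to 0.10). The amino acid transporter SLC7A5 (-0.12) and asparagine synthetase ASNS (-0.10) fell by similar amounts too. The histone H2AC16 lay within 0.5 of 0 and also passed the adjusted p (-0.36, interval -0.50 to -0.22, adjusted p = 0.006).

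**Figure D4:**
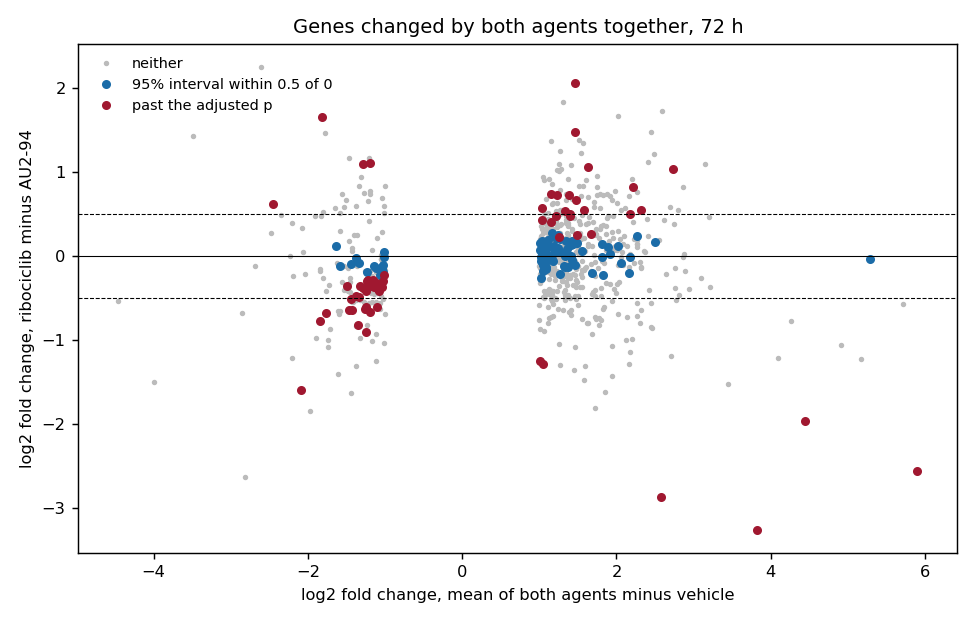
The 685 genes that differed from vehicle by the mean of the agents at 72 h, with the mean log2 change from vehicle on the x axis and the direct log2 difference, ribociclib minus AU2-94, on the y axis; dashed lines mark 0.5. Blue points have a 95% interval within 0.5 of 0, and red points, drawn over blue where a gene is both, passed the adjusted p in the direct comparison; on the left most points lie below 0 (136 of 183).

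Distances between libraries, taken over log2 values of all genes tested, gave the same scale. The 9 pairs of a ribociclib and an AU2-94 library were 66.9 to 80.0 apart (median 69.5). Replicates were 62.9 to 73.8 apart with ribociclib and 63.9 to 67.4 with AU2-94, and either agent was at least 84.4 from vehicle. Every library still had a replicate of its own group as its nearest neighbour.

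At 24 h, in other libraries, fewer genes passed. Of 16137 genes, 0 (0%) were higher and 2 (0.0124%), BDH2 and CHST15, lower with ribociclib past both thresholds, and on the adjusted p alone 3 were higher and 3 lower; at an unadjusted p under 0.05 in limma the numbers were 1083 and 949. With the replicate block, which pairs libraries by number, 0 passed both thresholds in either direction, and the 2 lower genes were lost with any 24 h library of the pair left out except AU2-94 replicate 3, without which 2 were higher and 2 lower. CHST15, a sulfotransferase, had 45.9, 47.0 and 38.9 normalised counts with ribociclib and 128, 113 and 150 with AU2-94. Of the 546 genes past the adjusted p at 72 h, 545 were tested at 24 h and 439 (80.6%) had the same sign, against 59.6% of all genes tested at both times. Across those 545 genes, which are not independent, Pearson's r was 0.46. Within the 320 higher genes it was -0.39 and within the 225 lower genes 0.45. Over all genes tested at both times it was 0.15. CYP1A1 differed by -0.81 at 24 h (adjusted p = 0.525) and MYOD1 by -2.53 (adjusted p = 0.437), in the direction seen at 72 h but not past the threshold.

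The difference itself changed with time for a few genes. Of 16850 genes in a fit of all 36 libraries, 2 (0.0119%) passed both thresholds upward, ID1 (1.84, adjusted p = 0.00678) and ID3 (1.41, adjusted p = 0.00439), and 2 (0.0119%) downward, TGM3 (-1.46, adjusted p = 0.00439) and PAG1 (-1.43, adjusted p = 0.0181). Leaving out AU2-94 replicate 3 at 24 h raised the 4 to 9, and with only the groups of the contrast 0 passed. ID1 was 767, 827 and 788 with ribociclib and 986, 943 and 807 with AU2-94 at 24 h, above vehicle at 560 to 685, so AU2-94 was not the lower agent there, and the agents overlapped. ID3 at 24 h stood at 637, 632 and 611 against 819, 831 and 708. TGM3 stood at 39.1 to 48.6 and 35 to 40.2 at 24 h, where the groups overlapped.

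**Figure D5:**
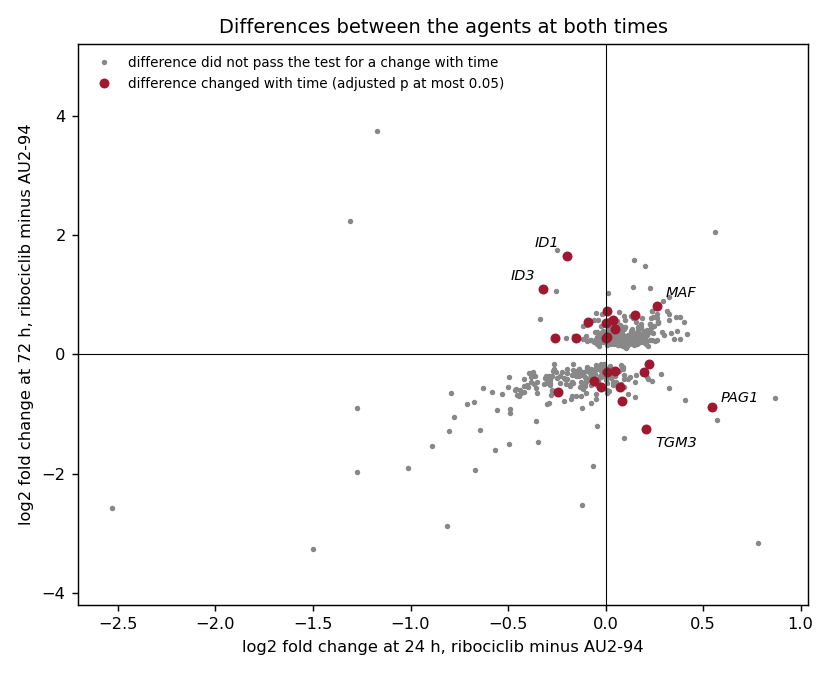
Direct log2 difference, ribociclib minus AU2-94, at 24 h (x axis) and 72 h (y axis) for the 545 genes past the adjusted p at 72 h and tested at both times. Most points lie at the lower left and upper right (80.6% same sign), while ID1 and ID3 lie at the upper left and TGM3 and PAG1 at the lower right among the red points, whose difference changed with time.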

How the data were processed

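The authors processed the reads of the LNCaP libraries (nf-core/rnaseq, STAR 2.6.1d, GRCh38, DESeq2 per the labels and methods) and deposited their normalised counts, a read-scale signal, for 29872 genes in 36 libraries. The values were not whole reads (7.07% to 47.6% of low values per library lay within 0.01 of a multiple of 1 step), so count models were not used. The read counter and annotation release are not given in the sources used here. Groups came from the labels.

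Genes with at least 10 normalised counts in at least 3 libraries were put on a log2 scale after adding 1 and fitted by limma (version 3.58.1, R 4.3.3, with a mean-variance trend), with the 18 libraries of a time point together, or all 36 for changes with time; p-values are two-sided and carry a Benjamini-Hochberg adjustment across every gene of the fit. Fold changes are on that log2 scale and understate changes of low genes. Intervals are at 95%. For genes past both thresholds where no library of an agent exceeded 3 normalised counts, a lower bound of the fold was taken from that floor. No floor was applied in the fits. Floors cover counting error only. The steps were tested on simulated data.

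The members and gene lists were chosen with earlier results of these data known. Named genes were a panel of cell-cycle and androgen-linked genes, 2 of which are not reported here, the 10 per direction with the largest change past both thresholds and a mean of at least 50, up to 4 per list past the adjusted p, and the 5 per direction with the largest change of the agents' mean from vehicle and an interval within 0.5; others are said to be named after values had been seen. Replicate numbers are labelled as batches, so the replicate block, an alternative fit, pairs libraries by them. The main fit does not pair libraries. Deviations of same-numbered libraries correlated at -0.07 to 0.00 across genes. Positions are from GENCODE release 44 and promoters from RefSeq; copies were found with BLAST (at least 100 bases at 98% identity). Alternatives covered pseudocount, filter, scaling, libraries fitted, trend, the replicate block, each library left out and, chosen after seeing the data, GC content and length.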

Additional observations from a re-analysis of the deposited data

Results flagged for a closer look

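The difference between ribociclib and AU2-94 at 72 h was itself different from that at 24 h, by a test of the change in limma over all 36 libraries, for 9 genes named in the report. On the log2 scale the change (72 h minus 24 h) was 1.84 for ID1, 1.41 for ID3, 0.725 for MICAL1, 0.551 for MAF, 0.515 for LCP1, -0.395 for PCK2, -0.868 for ACKR3, -1.43 for PAG1 and -1.46 for TGM3. In all, 31 genes passed the adjusted p, 19 upward and 12 downward. Time and seeding density varied together, and their parts cannot be told apart.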

How the results depend on the processing

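Genes past both thresholds at 72 h numbered 12 higher and 22 lower with ribociclib, and 4 and 2 with a filter on a mean of at least 100, which tests fewer genes, and 5 and 5 with only the 6 libraries of the contrast, which leaves fewer libraries for the spread. With quantile normalisation 14 were lower. On the adjusted p alone, 320 were higher and 226 lower; the numbers were 47 and 45 with only those libraries, and the higher ones were 198 with quantile normalisation, 167 with equal totals and 159 without the trend. Against vehicle, 502 were higher and 183 lower by the mean of the 2 agents, 280 and 121 with a pseudocount of 8 and 141 and 72 with the filter at 100, and 275 lower without a filter. Of the shared-response genes 23 instead of 63 passed with only the groups of the contrast. At 24 h, 1 gene was higher without a filter and with all 36 libraries; lower genes numbered 2, but 0 without a filter, with the filter at 100, with quantile normalisation, without the trend and with the replicate block, 1 with only the groups of the contrast and 9 with all 36 libraries. Genes whose difference changed with time numbered 4, 7 without a filter and 0 with only the groups of the contrast. The cause of these shifts was not tested except where stated.

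Leaving out 1 library at a time, the 72 h counts were 3 to 13 higher and 9 to 24 lower past both thresholds, and 131 to 284 and 86 to 201 on the adjusted p. Against vehicle they were 464 to 526 and 152 to 183, with 73 to 100 genes alike within 0.5 and 38 to 67 past the adjusted p. At 24 h they were 0 to 2 and 0 to 2, and for the change with time 3 to 9 (9 without AU2-94 24 h replicate 3).

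With the replicate block, which pairs libraries by number, 14 genes were higher and 20 lower at 72 h past both thresholds, and 293 and 208 on the adjusted p; 29 of the 34 genes were shared with the fit without it, including every one of the 34 named in the report. Among the counts over all genes and over the shared response, the block changed no other by over 1.5 times except that at 24 h. Some counts of the gene lists moved further. With the block, ER stress and ATF4 genes higher with ribociclib fell from 8 to 4 and replication genes lower from 7 to 4. Lysosome genes higher fell from 2 to 1, mitochondrially encoded genes from 2 to 0 and immediate early genes from 1 to 0. With the correction for GC content and length the 72 h counts were 12 and 23, and 15 and 21 with the block as well.

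Values of named genes turned sign under some alternative for 8 genes, none past the adjusted p. PCDH11Y was 0.0030 with the GC and length correction, with or without the block, and CCND3 was -0.0127 with equal totals. With 1 library left out, values ran from -0.0750 to 0.806 for AHRR, -0.205 to 0.0152 for ASNS, -0.0877 to 0.0152 for CCNB1, -0.0369 to 0.0852 for CCND3, -0.470 to 0.315 for CDK6, -0.241 to 0.161 for OR51E1, -0.115 to 0.0445 for PCDH11Y and -0.0734 to 0.0325 for UGT2B17. Precision was lowest for low-level genes: the interval lay within 0.5 of 0 for 3.98% of genes with a mean under 100.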
